A study of Mus musculus with 24 samples.

Results

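Gene expression was compared between B cell precursors of mice with a single working Pax5 copy and the BCR/ABLp190 fusion oncogene driven from the Sca1 promoter (Sca1-BCR/ABLp190+Pax5+/-, heterozygous precursors) and B cell precursors of wild-type mice. The members were chosen by sample title alone and are 7 of the 24 arrays of the series, 3 heterozygous and 4 wild type, 1 array per sample. A further 3 arrays hold precursors with the oncogene and both Pax5 copies (Sca1-BCR/ABLp190, precursors with both copies), and these are used to ask which differences also hold between oncogene-bearing groups. All 10 samples are bone marrow pro-B and pre-B cells, called preleukaemic in the oncogene-bearing groups, and the remaining arrays of the series are leukaemic marrow and its B220+ controls. The design text counts 3 wild-type precursor mice, while the labels give 4 biological replicates, and all 4 were used. The mice lived in a conventional facility with exposure to common infections. The Sca1 promoter is active mainly in haematopoietic stem and progenitor cells, so expression of the transgene in the precursors measured is not given by the label. The labels used here state no strain, age, sex or sort markers.

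PAX5 is the transcription factor that commits lymphoid progenitors to the B lineage, switching on B cell genes and holding down genes of other lineages, and loss of 1 copy is common in precursor B cell leukaemia. BCR/ABL is a constitutively active tyrosine kinase that feeds the STAT5, RAS-ERK and PI3K pathways, which in normal precursors are driven by the interleukin-7 receptor and the pre-B cell receptor. The comparison sets cells with both lesions, before leukaemia, beside normal precursors, so it cannot tell the oncogene from the lost copy.

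In heterozygous precursors 832 of 19938 genes differed from wild-type precursors (4.17%, limma with Benjamini-Hochberg adjustment, adjusted p under 0.05), and 4626 had an unadjusted p under 0.05. List counts below are to be read beside these shares of all genes. Of the 832, 245 were higher (1.23% of genes tested) and 587 lower (2.94%), so 70.6% of the called genes fell. This split depends on the scaling: after quantile normalization of the deposited values 567 genes were higher and 507 lower, so that 52.8% of the called genes rose. The asymmetry was wider among large changes, since 10 genes rose and 82 fell by at least 1 on the log2 scale. Across all genes the median log2 change was 0.03. The number of called genes leaned on single wild-type arrays: it was 37 without wild-type array 3, 75 without array 2 and 115 without array 1. It was 397 without heterozygous array 2 and 431 without heterozygous array 1. Read from Xist and Y-linked transcripts, heterozygous arrays 1 and 2 came from males, and heterozygous array 3 and all 4 wild-type arrays from females. With sex as a covariate the fit rests on the 1 female heterozygous array, which is assumed to vary like the other groups. It is no replicated check within females, and which of the 832 calls hold within 1 sex cannot be told from it. The 2 male heterozygous arrays against wild type gave 1063 called genes, 554 of them among the 832. No male wild-type array was measured, so in the 2 male arrays sex and genotype cannot be told apart. Genes on the Y chromosome contributed 0 calls among 9 tested, and of 739 on the X chromosome 3 were higher and 30 lower. All changes below are log2 changes with the standard error of the limma fit, and the number of arrays limits their precision.

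**Figure D1:**
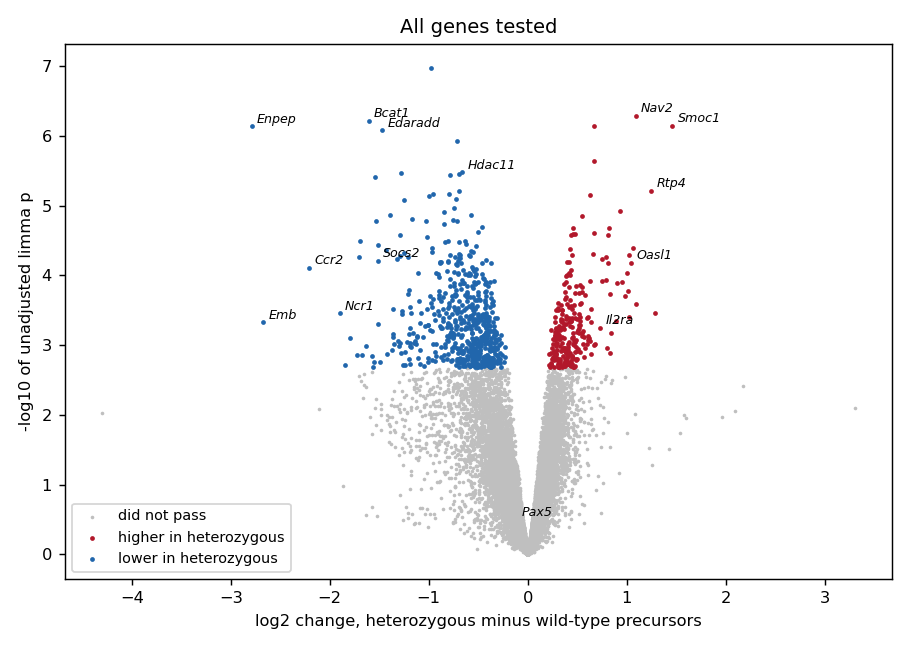
Each point is 1 of 19938 genes, with the log2 change in heterozygous minus wild-type precursors on the horizontal axis and the -log10 of the unadjusted limma p on the vertical axis. Red points are the 245 genes that rose, blue points the 587 that fell, and the falls reach further from 0 than the rises.

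Pax5 itself had log2 levels of 11.80, 11.58 and 12.004 in heterozygous precursors, against 11.86, 11.81, 11.93 and 12.02 in wild-type precursors. The groups overlapped, and the change of -0.11 ± 0.10 did not pass (adjusted p = 0.543). The sources used here do not say whether the probes fall in the deleted part of the gene, so this level does not check the labels. The mouse genes of the fusion partners gave 0.23 ± 0.11 for Abl1 (adjusted p = 0.251) and -0.02 ± 0.09 for Bcr (adjusted p = 0.93), and whether these probe sets read the human transgene is not known. Markers of the B lineage were high on every array, with a mean log2 level over 10 genes of 12.20 to 12.47 in heterozygous precursors and 12.02 to 12.18 in wild-type precursors. None of the 10 passed (3 at an unadjusted p under 0.05), among them Ebf1, the factor that acts with PAX5 in commitment (0.14 ± 0.10, adjusted p = 0.427), and the receptor component Cd79a (0.28 ± 0.09, adjusted p = 0.111). Of 12 markers of pro-B and large cycling pre-B cells 1 rose, the interleukin-7 receptor chain Il7r, and of 10 markers of small pre-B cells 1 rose, Il2ra, which encodes CD25. The medians of these lists were -0.07 and 0.04, so neither rise stands for its list. Other members had negative changes that did not pass, among them Kit in the first list (-0.61 ± 0.15) and Cnr2 in the second (-0.69 ± 0.19).

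The largest rise was that of Smoc1 on chromosome 12, which encodes a secreted calcium-binding protein of the extracellular matrix. It had log2 levels of 8.15, 7.79 and 8.20 in heterozygous precursors, against 6.57, 6.51, 6.46 and 6.80 in wild-type precursors. The groups did not overlap, and the change was 1.46 ± 0.13 (2.75-fold, adjusted p = 0.00235). Mcoln2, a cation channel of endosomes and lysosomes, had 10.51, 10.20 and 11.01 in heterozygous precursors, against 9.15 to 9.38 in wild-type precursors (1.29 ± 0.24, adjusted p = 0.0261). Nav2, a neuron navigator protein, had 9.56, 9.41 and 9.47 in heterozygous precursors, against 8.27, 8.24, 8.50 and 8.53 in wild-type precursors. Its change of 1.09 ± 0.093 (adjusted p = 0.00235) kept the call in all 19 alternatives, a property shared only by Enpep and Hdac11 among the 100 named genes that passed. Of the 12 largest rises, 5 are known as interferon-induced genes: Rtp4, Oasl1, Oas2, Ifi206 and Ifi213. The others were the netrin receptor Unc5a (1.09), the TNF receptor family member Tnfrsf19 (1.06), the glycerolipid synthesis enzyme Gpat3 (1.02) and the forkhead factor Foxp4 (1.00).

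The largest fall was that of Enpep on chromosome 3, which encodes the aminopeptidase known as BP-1, a surface antigen used to stage early B cell precursors. Its log2 levels were 6.66, 6.25 and 6.29 in heterozygous precursors, against 8.78, 9.77, 9.51 and 8.70 in wild-type precursors. The gap between the groups was wider than the spread within either, and the change was -2.79 ± 0.25 (6.92-fold lower, adjusted p = 0.00235). Emb on chromosome 13, which encodes the glycoprotein embigin and is a gene that PAX5 represses, had 6.85, 6.30 and 6.47 in heterozygous precursors, against 9.58, 9.50, 8.89 and 8.86 in wild-type precursors (-2.67 ± 0.52, adjusted p = 0.0279). Bcat1, the cytosolic transaminase of branched-chain amino acids, had 7.23, 7.35 and 6.82 in heterozygous precursors, against 8.71, 8.95, 8.63 and 8.68 in wild-type precursors (-1.61 ± 0.14, adjusted p = 0.00235). Mastl, a kinase needed for entry into mitosis, had 7.52, 7.42 and 6.00 in heterozygous precursors, against 8.56 to 8.87 in wild-type precursors (-1.73 ± 0.39, adjusted p = 0.0423). The fall in Cd36, a scavenger receptor that takes up fatty acids, was -1.64 ± 0.35 (adjusted p = 0.0374), with wild-type array 2 at 8.34 and the other wild-type arrays at 7.01 to 7.11. The remaining large falls were in genes of natural killer (NK) and myeloid cells (Ncr1, Klra17, Klri2, Klra8, Ccr2 and Cd300c) and in Prelid2.

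**Figure D2:**
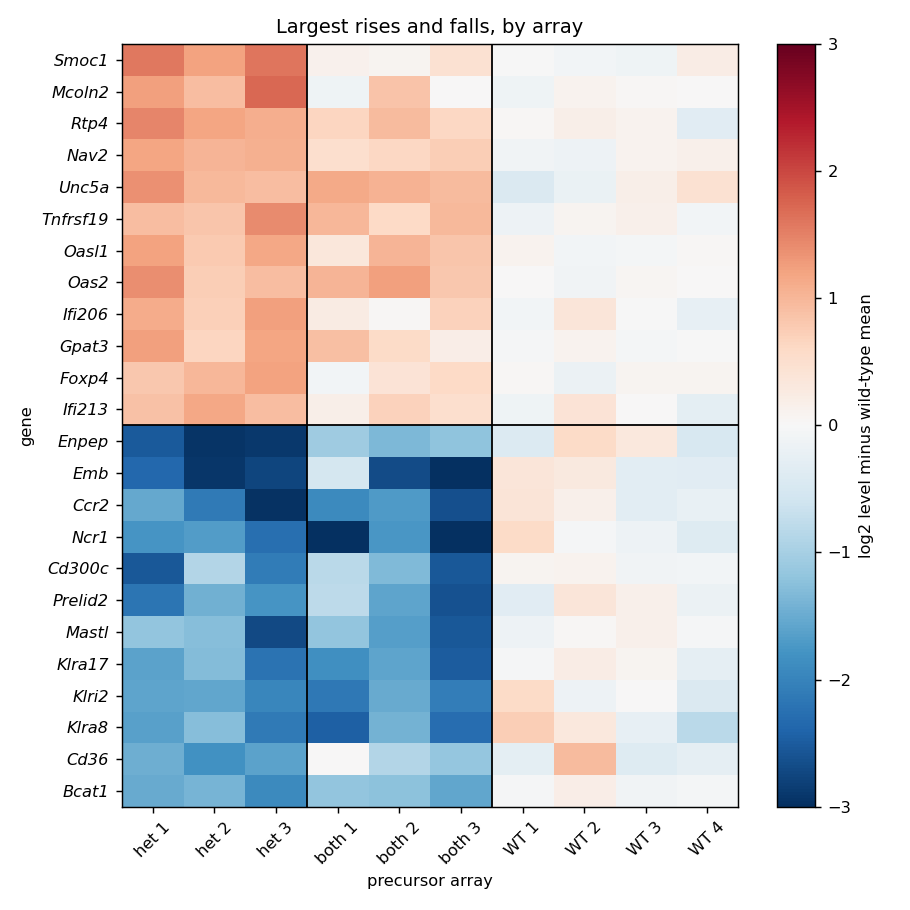
Rows are the 12 largest rises (above the line) and the 12 largest falls (below it) of heterozygous against wild-type precursors, and columns are the 10 precursor arrays. Colour is the log2 level minus the wild-type mean of that gene. All 3 heterozygous arrays are red in the upper rows and blue in the lower rows, and the arrays with both copies lie between the groups for Enpep and at the heterozygous level for Unc5a and Oas2.

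Type I interferon response genes were the list with the most rises. Interferon binds its receptor and switches on antiviral genes, many of which carry the interferon-stimulated response element in their promoters. Of 23 measured members, 7 rose and 1 fell, with a median log2 change of 0.32 (0.03 over all genes), and the median lay between 0.27 and 0.44 in 19 alternatives. Rtp4, a receptor transporter induced by interferon, had 8.32, 8.03 and 7.95 in heterozygous precursors, against 6.90, 7.03, 6.97 and 6.52 in wild-type precursors (1.24 ± 0.14, adjusted p = 0.00717). The oligoadenylate synthetase Oas2, which helps degrade viral RNA, had 8.30, 7.65 and 7.83 in heterozygous precursors, against 6.92, 6.81, 6.96 and 6.93 in wild-type precursors (1.02 ± 0.15, adjusted p = 0.0143). Its relatives Oasl1 (1.05 ± 0.16, adjusted p = 0.0143) and Oasl2 (0.68 ± 0.14, adjusted p = 0.0361) rose too. In the same direction moved Xaf1, an antagonist of apoptosis inhibitors (0.90 ± 0.15, adjusted p = 0.0181), and the RNA-binding antiviral genes Ifit1 and Ifit3. Ifit1 had 6.53, 6.23 and 6.60 in heterozygous precursors, against 5.92, 6.10, 5.96 and 5.74 in wild-type precursors, and Ifit3 changed by 0.53 ± 0.10 (adjusted p = 0.0271). The antiviral enzyme viperin, encoded by Rsad2, went the other way, with 8.70, 7.87 and 8.19 in heterozygous precursors, against 9.55, 10.10, 9.66 and 9.69 in wild-type precursors (-1.49 ± 0.35, adjusted p = 0.0465). The interferon regulators did not pass: Irf7 had -0.03, Irf9 0.41 and Stat2 -0.04, and neither did the antiviral GTPases Mx1 (-0.03) and Mx2 (0.23). Without wild-type arrays 1, 2 or 3 the rises numbered 3, 1 and 1, and no fall passed. Without wild-type array 3, Rtp4 and the histone deacetylase gene Hdac11 were the members still called among all lists, cell type markers included.

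The promoter windows of the called members that hold the response element are shown because 2 of these genes rose and 1 fell. The element was searched on both strands as 2 runs of GAAA with any 2 bases between them in the 250 bases before the start of each gene in the RefSeq promoter table (GRCm38.p6). It was found in 936 of 27025 genes (3.46%), in 7 of 16 list members with an entry, and in 3 of 6 called members with an entry, which are Ifit1, Ifit3 and Rsad2. Oasl1, Oasl2 and Xaf1 held no match in this window. Each printed stretch is the 170 bases before the start, on the strand of the gene, and capitals mark the match, which in all 3 genes is read as the reverse complement. The stretches are chr19:34640719-34640888 on the plus strand for Ifit1, chr19:34583359-34583528 on the plus strand for Ifit3 and chr12:26456453-26456622 on the minus strand for Rsad2.
Ifit1: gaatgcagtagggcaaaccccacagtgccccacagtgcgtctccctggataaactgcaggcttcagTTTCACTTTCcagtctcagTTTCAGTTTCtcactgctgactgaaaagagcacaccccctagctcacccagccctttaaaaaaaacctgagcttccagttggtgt
Ifit3: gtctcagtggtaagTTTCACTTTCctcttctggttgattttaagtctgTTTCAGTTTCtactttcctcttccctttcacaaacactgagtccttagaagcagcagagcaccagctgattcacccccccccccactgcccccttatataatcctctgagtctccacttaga
Rsad2: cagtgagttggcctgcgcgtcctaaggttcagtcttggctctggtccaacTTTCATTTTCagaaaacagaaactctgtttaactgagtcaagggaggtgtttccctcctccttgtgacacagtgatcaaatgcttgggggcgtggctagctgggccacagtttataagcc
The first bases of the matches lie at positions -104 and -85 of Ifit1, -156 and -122 of Ifit3 and -120 of Rsad2, counted back from the start. A match describes these letters and not a bound site.

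Lists of signalling genes, among them targets of pathways that BCR/ABL feeds, differed in direction from list to list, and activity of the kinase was not measured here. Of 19 STAT5 targets 1 rose and 2 fell, with a median of 0.05 that was below 0 in 4 of 19 alternatives. Il2ra on chromosome 2, the interleukin-2 receptor chain that marks small pre-B cells, had 12.24, 12.36 and 12.82 in heterozygous precursors, against 11.73, 11.59, 11.71 and 11.93 in wild-type precursors (0.73 ± 0.15, adjusted p = 0.0299). Socs2, a feedback inhibitor of cytokine receptors, had 8.03, 8.41 and 8.55 in heterozygous precursors, against 9.83, 10.13, 9.93 and 9.47 in wild-type precursors (-1.51 ± 0.23, adjusted p = 0.0143), and a second probe set of the gene gave -0.46. Ccnd3, the D cyclin that drives division of pre-B cells, fell by 0.62 ± 0.11 (adjusted p = 0.0246). The feedback gene Cish had -0.05 and the survival gene Bcl2l1 0.17, and neither passed. In the list of 18 interleukin-7 receptor, JAK and STAT components Il7r rose, with 13.03, 12.84 and 13.17 in heterozygous precursors, against 12.66 to 12.72 in wild-type precursors (0.32 ± 0.08, adjusted p = 0.0478). The median of that list went the other way, at -0.12, and stayed below 0 in 19 alternatives. Of 17 ERK feedback genes Spry2 rose (0.51 ± 0.11, adjusted p = 0.039) and Spred1 fell. Spred1, an inhibitor of RAS signalling, had 6.78, 6.68 and 6.14 in heterozygous precursors, against 7.74 to 7.92 in wild-type precursors (-1.29 ± 0.17, adjusted p = 0.0121). Among 20 immediate early genes the AP-1 subunit Jund rose (0.61 ± 0.12, adjusted p = 0.0271) and the nuclear receptor Nr4a2 fell (-0.51 ± 0.11, adjusted p = 0.0376). Of 18 NF-kB genes 1 fell, Traf1 (-0.37 ± 0.088, adjusted p = 0.0497), a called share near the 4.17% of all genes. The NF-kB median was 0.12 and stayed above 0 in 19 alternatives.

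Genes that PAX5 is known to activate or repress were read as 2 lists. Of 23 activated genes 3 rose and 1 fell (median 0.08, and -0.04 without heterozygous array 3). Id3, an inhibitor of E proteins, had 9.29, 9.01 and 8.62 in heterozygous precursors, against 8.20, 8.11, 8.10 and 8.16 in wild-type precursors (0.83 ± 0.14, adjusted p = 0.021). Fcer2a, the low-affinity IgE receptor of mature B cells, changed by 0.57 ± 0.12 (adjusted p = 0.0336) and the ETS factor Spib by 0.28 ± 0.06 (adjusted p = 0.0361). Rasgrp3, a RAS activator downstream of the B cell receptor, had 7.35, 6.79 and 7.36 in heterozygous precursors, against 7.90 to 8.21 in wild-type precursors (-0.90 ± 0.15, adjusted p = 0.0211). Of 27 repressed genes 0 rose and 4 fell, with a median of -0.37: Emb, the lysosomal protease Ctsl (-1.36 ± 0.25, adjusted p = 0.0248), the T cell costimulator Cd28 (-0.76 ± 0.14, adjusted p = 0.0263) and the signalling regulator Rgs1 (-0.67 ± 0.14, adjusted p = 0.0336). The repressed list includes genes of NK, T and myeloid cells, whose markers are given below, and the part of those cells in these falls was not tested. Its mean level was 8.57 to 8.84 in heterozygous precursors and 9.10 to 9.44 in wild-type precursors. Ly6d, which is in both this list and the B lineage markers, had 1.26 and did not pass (adjusted p = 0.219).

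Among 26 transcription factors of the B lineage 3 rose (Id3, Spib and Pou2f2, which encodes OCT2, 0.55 ± 0.11, adjusted p = 0.0333) and 2 fell. Id2, an E protein inhibitor that NK and dendritic cells need, had 9.98, 9.60 and 9.67 in heterozygous precursors, against 11.13, 10.75, 10.87 and 10.59 in wild-type precursors (-1.09 ± 0.21, adjusted p = 0.0282). Ikzf2, which encodes the Ikaros relative Helios, fell by 0.57 ± 0.09 (adjusted p = 0.0157). Of 16 genes of the surrogate light chain and V(D)J recombination 1 fell, the DNA repair enzyme Tdp2 (-0.78 ± 0.15, adjusted p = 0.0299), while the recombinase Rag1 had 0.10, the polymerase Dntt -0.10 and the surrogate light chain gene Igll1 -0.08, none past the test. Of 24 genes of B cell receptor signalling 1 fell, Rasgrp3. The called shares of this list and of the V(D)J list lie near the 4.17% of all genes. None of 10 genes of MHC class II presentation passed (4 at an unadjusted p under 0.05), and the median was 0.29, led in p by H2-Eb1 (0.81 ± 0.27, adjusted p = 0.113). The homing receptor for sphingosine phosphate S1pr3 had 8.07, 7.99 and 8.38 in heterozygous precursors, against 7.12 to 7.53 in wild-type precursors (0.79 ± 0.12, adjusted p = 0.0143), and the oxysterol receptor Gpr183 fell (-0.42 ± 0.09, adjusted p = 0.0331).

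**Figure D3:**
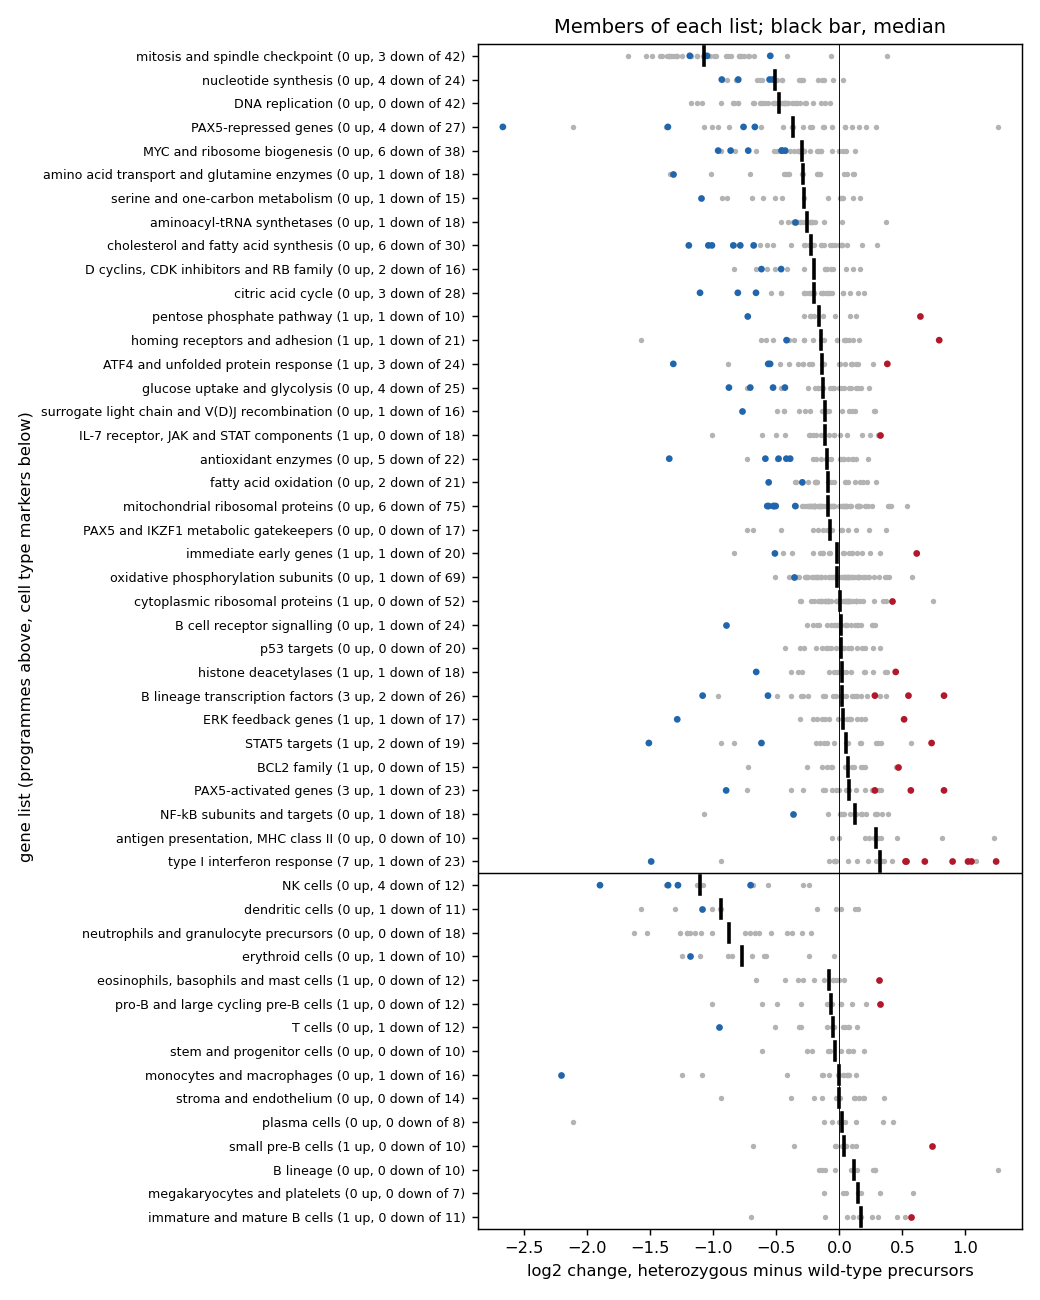
Each row is a gene list, each point a measured member, and the horizontal axis its log2 change in heterozygous minus wild-type precursors. Red and blue points passed the test upwards and downwards, grey points did not, black bars are medians, and programmes (above) and cell type markers (below) are each sorted by median. Mitosis and NK cell markers have the lowest medians (-1.08 and -1.11), and the interferon list the highest (0.32).

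Cell division genes had the lowest median of the programme lists, but few members passed. Of 42 genes of mitosis and the spindle checkpoint 3 fell and 0 rose, with 36 at an unadjusted p under 0.05 and a median of -1.08. Melk, a mitotic kinase, had 8.17, 8.07 and 7.19 in heterozygous precursors, against 9.03, 8.89, 9.06 and 9.01 in wild-type precursors (-1.19 ± 0.24, adjusted p = 0.0299). The centromeric histone Cenpa changed by -0.55 ± 0.13 (adjusted p = 0.0451) and the kinetochore protein Ndc80 by -1.05 ± 0.25 (adjusted p = 0.0489). The list averaged 9.80, 9.68 and 8.37 on heterozygous arrays 1 to 3, against 10.27 to 10.40 on the wild-type arrays. All heterozygous arrays lay below wild type, and array 3 lay more than 1 log2 unit below the other two. Without heterozygous array 3 the median was -0.57 and 1 member passed, and with that array alone against wild type, which is the comparison within females, it was -2.03. The mitotic kinase Cdk1 shows the same arrays, with 10.50, 10.86 and 8.79 in heterozygous precursors, against 11.33 to 11.54 in wild-type precursors (-1.37 ± 0.44, adjusted p = 0.103). In a list of 42 DNA replication genes 0 passed (median -0.48, and -0.29 without array 3). In this list 42 of 42 changes were negative, beside 8307 of 19938 over all genes, and 27 had an unadjusted p under 0.05. All were read on the same arrays, so their signs are not separate observations. Of 16 D cyclins, CDK inhibitors and RB family genes 2 fell, Ccnd3 and the retinoblastoma gene Rb1 (-0.46 ± 0.09, adjusted p = 0.0268). Among 20 p53 targets 0 passed, and 5 had an unadjusted p under 0.05, near the share over all genes (4626 of 19938). Of 15 BCL2 family genes 1 rose, the apoptosis effector Bak1 (0.46 ± 0.10, adjusted p = 0.0363), a called share near the 4.17% of all genes.

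Genes of growth and biosynthesis fell where they passed, except Rpl38. Among 38 MYC targets and ribosome biogenesis genes there were 6 falls and 0 rises, the median was -0.30 and 25 had an unadjusted p under 0.05. Nop58, a core protein of small nucleolar ribonucleoproteins, had 8.32, 8.19 and 8.26 in heterozygous precursors, against 9.05, 9.39, 9.26 and 9.18 in wild-type precursors (-0.96 ± 0.17, adjusted p = 0.0245). Gar1 (-0.72 ± 0.11), the RNA processing factor Rcl1 (-0.46 ± 0.06) and the RNA polymerase I subunit Polr1b (-0.46 ± 0.09) also fell. Myc did not pass, with 9.56, 9.43 and 7.40 in heterozygous precursors, against 9.66 to 9.84 in wild-type precursors (-0.94 ± 0.45, adjusted p = 0.24). Of 75 mitochondrial ribosomal proteins 6 fell, among them Mrps6 (-0.57 ± 0.08, adjusted p = 0.0143) and Mrps22 (-0.52 ± 0.08, adjusted p = 0.0165), while of 52 cytoplasmic ribosomal proteins 1 rose, Rpl38 (0.41 ± 0.08, adjusted p = 0.0279). Of 24 nucleotide synthesis genes 4 fell and the median was -0.51: the pyrimidine enzymes Umps, Cad and Ctps and the purine enzyme Gart. Umps had 8.62, 8.39 and 8.16 in heterozygous precursors, against 9.12 to 9.30 in wild-type precursors (-0.80 ± 0.12, adjusted p = 0.0143). These lists also had their lowest array mean in heterozygous array 3, at 8.93 for ribosome biogenesis and 8.90 for nucleotide synthesis, and without it 8 and 2 members fell.

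Carbon and lipid metabolism showed scattered falls. Of 25 genes of glucose uptake and glycolysis 4 fell (Ldha, Ldhb, Pdk3 and Pfkp), with a median of -0.13. Ldha on chromosome 7, which makes lactate, had 11.28, 10.94 and 10.997 in heterozygous precursors, against 11.94, 12.002, 11.99 and 11.88 in wild-type precursors (-0.88 ± 0.13, adjusted p = 0.0143). Of 28 citric acid cycle genes 3 fell, led by the isocitrate dehydrogenase subunit Idh3a (-1.11 ± 0.17, adjusted p = 0.0165), with Me2 (-0.81) and Sucla2 (-0.66). Of 69 oxidative phosphorylation subunits 1 fell, Atp5b (-0.36 ± 0.083, adjusted p = 0.0439), which at 1.45% is below the 4.17% of all genes. Of 30 genes of cholesterol and fatty acid synthesis 6 fell (median -0.22): Idi1 (-1.20 ± 0.20), Elovl6 (-1.04 ± 0.20), the desaturase Scd1 (-1.01 ± 0.20), Msmo1 (-0.84 ± 0.19), Cyp51 (-0.79 ± 0.11) and Hmgcs1 (-0.68 ± 0.11). Hmgcs1, which makes the precursor of mevalonate, had 8.85, 8.61 and 8.43 in heterozygous precursors, against 9.17 to 9.53 in wild-type precursors. Its promoter is shown because sterol sensing acts through the sterol response element, searched as TCACNCCAC on both strands in the same windows and found in 331 genes (1.22%), in 1 of 23 list members with an entry and in 1 of 5 called members. The stretch is chr13:119690181-119690350 on the plus strand (GRCm38.p6, RefSeq), with the match in capitals at position -137.
Hmgcs1: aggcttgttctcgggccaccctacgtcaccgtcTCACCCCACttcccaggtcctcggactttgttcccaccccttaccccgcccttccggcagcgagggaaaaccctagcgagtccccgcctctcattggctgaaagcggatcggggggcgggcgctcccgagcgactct

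Few amino acid genes passed, and larger shares of the stress lists did. The shares called were 5.56% for amino acid transport, 6.67% for serine and one-carbon genes and 5.56% for aminoacyl-tRNA synthetases, near the 4.17% of all genes. The calls in these lists are thus single genes. Their median log2 changes were -0.29, -0.28 and -0.26, beside 0.03 over all genes, and stayed below 0 in 19 alternatives. The shares were 16.7% for ATF4 and the unfolded protein response and 22.7% for antioxidant enzymes. Asparagine synthetase Asns, a target of the stress factor ATF4, had 6.66, 6.64 and 6.86 in heterozygous precursors, against 7.89, 8.15, 8.20 and 7.91 in wild-type precursors (-1.32 ± 0.20, adjusted p = 0.0143). It was the 1 called member of 18 genes of amino acid transport and glutamine metabolism. Psat1, which makes serine, was the 1 called member of 15 serine and one-carbon genes (-1.10 ± 0.19, adjusted p = 0.0226). Of 24 genes of ATF4 and the unfolded protein response 3 fell (Asns, Pdia6 and Creld2) and 1 rose, the mTORC1 inhibitor Ddit4 (0.38 ± 0.09, adjusted p = 0.0488), while Atf4 had -0.01. Of 22 antioxidant enzymes 5 fell, among them Prdx3 (-0.59 ± 0.093, adjusted p = 0.0165) and Gclm, the regulatory subunit of glutathione synthesis, with 8.82, 8.19 and 8.20 in heterozygous precursors, against 9.61 to 9.90 in wild-type precursors (-1.35 ± 0.29, adjusted p = 0.0361). In the pentose phosphate pathway 1 of 10 rose, Pgls (0.64 ± 0.14, adjusted p = 0.0416), and 1 fell, Prps1 (-0.73 ± 0.14, adjusted p = 0.0291). Of 21 fatty acid oxidation genes 2 fell, Echs1 (-0.56 ± 0.10) and Hadhb (-0.29 ± 0.06), and of 18 aminoacyl-tRNA synthetases 1 fell, Kars (-0.35 ± 0.08). In a list of 17 energy-limiting genes under PAX5 and IKZF1 control, 0 passed by limma (3 at an unadjusted p under 0.05). The cannabinoid receptor Cnr2 had the smallest p among them (-0.69 ± 0.19, adjusted p = 0.0739), while the thioredoxin inhibitor Txnip had -0.08 and hexokinase Hk2 -0.13.

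Markers of other marrow cells differed between the groups as well. In bulk samples fewer cells of a type and less RNA per cell cannot be told apart. Of 12 NK cell markers 4 fell and 12 of 12 changes were negative (8307 of 19938 over all genes), with a median of -1.11. The activating receptor Ncr1 had 7.74, 7.85 and 7.24 in heterozygous precursors, against 10.08, 9.47, 9.37 and 9.13 in wild-type precursors (-1.90 ± 0.35, adjusted p = 0.0261). The receptors Klrk1 (-1.36 ± 0.28) and Klrb1c (-1.28 ± 0.29) and the factor Tbx21 (-0.71 ± 0.13) fell with it. The list averaged 6.73 to 7.67 in heterozygous precursors and 7.92 to 8.61 in wild-type precursors, and without heterozygous array 3 the median was -0.80 with 2 members called. Of 11 dendritic cell markers Clec9a fell (-1.09 ± 0.26, adjusted p = 0.0476), with list averages of 6.93 to 8.0 in heterozygous precursors and 8.09 to 8.28 in wild-type precursors. The dendritic median was -0.94, and -0.37 without heterozygous array 3. Of 16 monocyte and macrophage markers 1 fell, Ccr2, with 7.88, 7.28 and 6.43 in heterozygous precursors, against 9.78, 9.57, 9.09 and 9.19 in wild-type precursors (-2.21 ± 0.34, adjusted p = 0.016), while the list median was -0.01. Of 10 erythroid markers 1 fell, the haem synthesis enzyme Alas2 (-1.19 ± 0.25, adjusted p = 0.0361), with list averages of 7.80 to 7.97 in heterozygous precursors and 8.45 to 8.78 in wild-type precursors. Of 12 T cell markers 1 fell, Cd3g (-0.96 ± 0.20, adjusted p = 0.0363), and the list averaged 6.59 to 6.79 in heterozygous precursors and 6.83 to 6.92 in wild-type precursors. None of 18 neutrophil markers passed (0 at an unadjusted p under 0.05), with averages of 7.20 to 7.60 in heterozygous precursors and 9.35, 9.20, 7.24 and 7.16 on wild-type arrays 1 to 4. The lists for stem and progenitor cells, plasma cells, megakaryocytes, and stroma and endothelium had 0 called members each (1, 2, 2 and 5 at an unadjusted p under 0.05), and those for mature B cells and for eosinophils, basophils and mast cells had 1 rise each, Fcer2a and Siglecf (0.31 ± 0.06, adjusted p = 0.0235). Heterozygous array 3 had the lowest NK, dendritic and mitosis averages of its group, and the part of these other cells in the falls of the other lists was not tested.

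**Figure D4:**
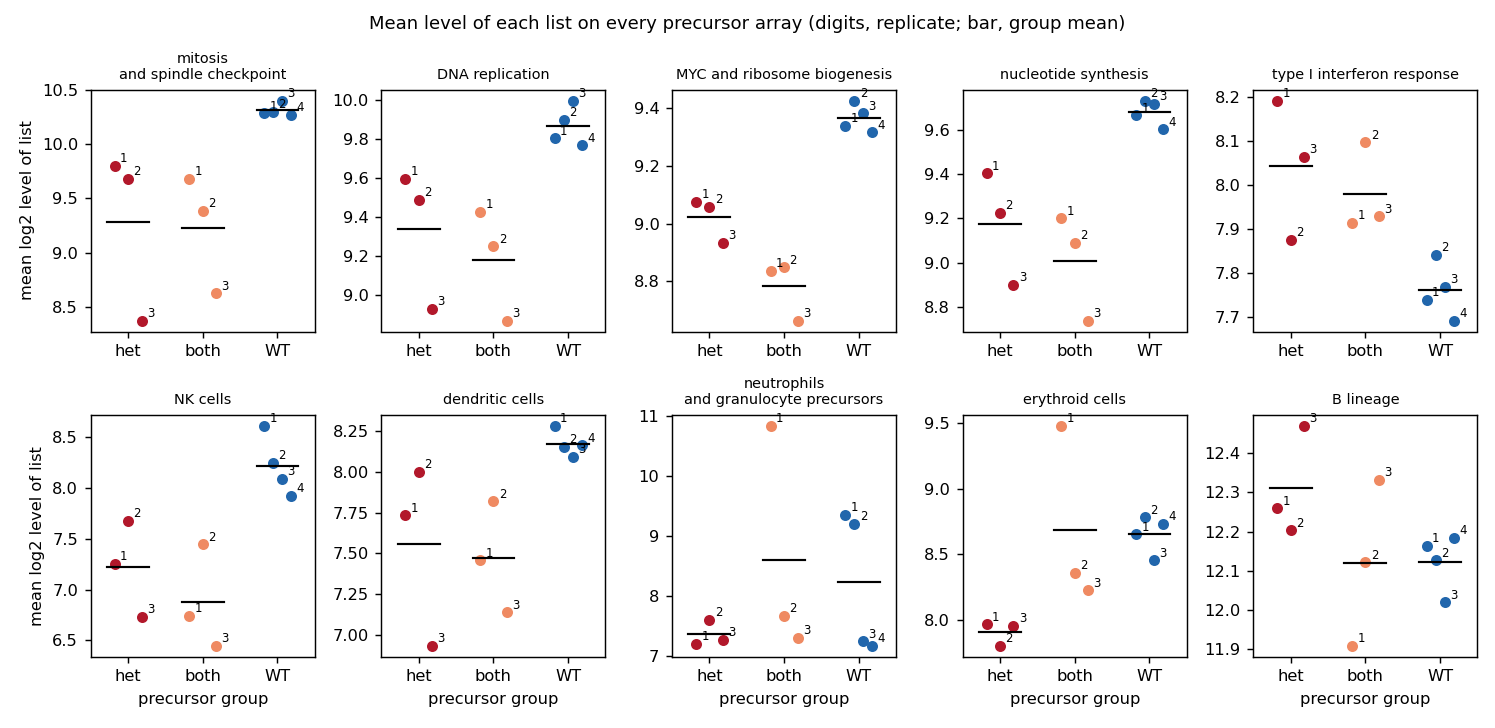
Each panel gives the mean log2 level of a gene list (vertical axis) on every precursor array, by group from left to right heterozygous, both copies and wild type. Digits are replicate numbers and bars group means. Heterozygous array 3 is lowest of its group for mitosis, DNA replication, NK and dendritic lists, and neutrophil markers are high on wild-type arrays 1 and 2 and on array 1 with both copies.

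To ask which differences also separate the oncogene-bearing groups, heterozygous precursors were set against precursors with both copies in the same limma fit. By this test 5 genes differed (0.0251% of 19938), 3 higher and 2 lower, and 2849 had an unadjusted p under 0.05. Same-numbered arrays of these groups deviated together weakly (r = 0.208, 0.213 and 0.25), a pairing read from the data that the labels do not state. With the replicate number as a block 0 of the 5 passed (2687 genes at an unadjusted p under 0.05). Smoc1 was higher in heterozygous precursors, at the levels given above, against 6.72, 6.66 and 7.03 in precursors with both copies (1.24 ± 0.14, adjusted p = 0.0272). Hdac11, a histone deacetylase, had 7.16, 7.17 and 7.11 in heterozygous precursors, against 7.98, 7.93 and 8.14 in precursors with both copies (-0.87 ± 0.07, adjusted p = 0.0105). The wild-type arrays had 7.67, 7.85, 7.88 and 7.84 for Hdac11, and the heterozygous change against them was -0.66 ± 0.07 (adjusted p = 0.00548). Edaradd, Synpo2 and Rassf2 fall outside the naming rule and were chosen after their values were seen. Edaradd, an adaptor of the ectodysplasin receptor, had 8.21, 7.84 and 7.72 in heterozygous precursors, 9.05, 9.35 and 9.56 in precursors with both copies, and 9.35, 9.39, 9.40 and 9.44 in wild-type precursors (-1.40 ± 0.14 against both copies, adjusted p = 0.0237). Synpo2, an actin-binding protein, had 7.24, 7.30 and 7.50 in heterozygous precursors, 6.13, 6.19 and 6.51 in precursors with both copies, and 6.39 to 6.66 in wild-type precursors (1.07 ± 0.11 against both copies, adjusted p = 0.0257). Rassf2, a RAS association domain protein, had 10.68, 10.51 and 10.54 in heterozygous precursors, 10.01 on all 3 arrays with both copies, and 10.14 to 10.30 in wild-type precursors (0.56 ± 0.06 against both copies, adjusted p = 0.0284). In all 5 genes the heterozygous arrays lay apart from both other groups. With the block the adjusted p ran from 0.0537 for Synpo2 to 0.193 for Edaradd and Rassf2, and over 17 alternatives from 0.00774 to 0.652 across the 5 genes.

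**Figure D5:**
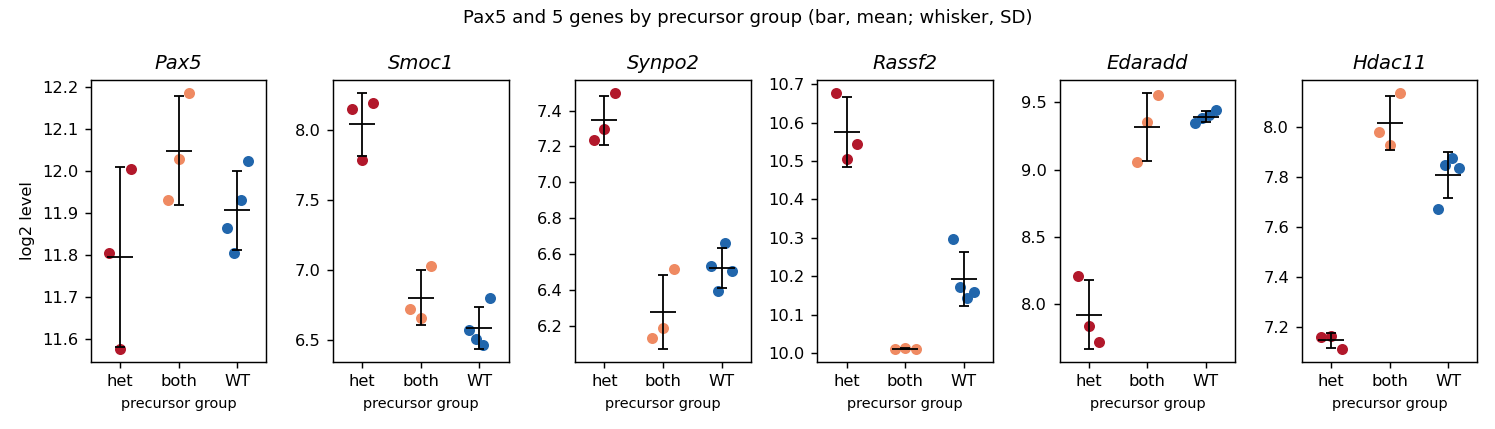
Log2 levels of Pax5 and of the 5 genes that differed between heterozygous precursors and precursors with both copies, by array, with groups from left to right heterozygous, both copies and wild type. Bars are means and whiskers SD (n = 3, 3 and 4). The heterozygous points lie apart from both other groups for all 5 genes and overlap wild type for Pax5.

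The other large changes did not pass between the oncogene-bearing groups, and their values against wild type are set side by side with the shared wild-type arrays in mind. Against wild type 5396 genes were called in precursors with both copies (27.1%), which were all read as males, so sex and genotype cannot be told apart there. Enpep was -2.79 in heterozygous precursors and -1.21 in those with both copies, each against wild type, and the difference between them was -1.58 (95% interval -2.18 to -0.99, adjusted p = 0.122). Nav2 was 1.09 in heterozygous precursors and 0.62 in precursors with both copies, a difference of 0.47 (0.25 to 0.70, adjusted p = 0.149). Rtp4 was 1.24 and 0.74 in these groups, a difference of 0.51 (0.17 to 0.84, adjusted p = 0.214). Rsad2 was -1.49 in heterozygous precursors and 0.34 in precursors with both copies, a difference of -1.83 (-2.67 to -1.0, adjusted p = 0.149). For Oas2 the difference was 0.01 (-0.35 to 0.36) and for Unc5a 0.05 (-0.42 to 0.51). Ncr1 was -1.90 in heterozygous precursors and -2.69 in precursors with both copies (difference 0.79, -0.05 to 1.64), and Ccr2 was -2.21 in heterozygous precursors and -2.09 in precursors with both copies (difference -0.13, -0.94 to 0.68). The intervals are unadjusted. For Pax5 itself the difference was -0.25 ± 0.11 (adjusted p = 0.345), with 11.93, 12.03 and 12.19 in precursors with both copies. Id3 (0.65), Fcer2a (0.56) and S1pr3 (0.62) had higher estimates in heterozygous precursors than in precursors with both copies, and none passed (adjusted p = 0.17, 0.161 and 0.147). List medians of heterozygous precursors minus precursors with both copies were 0.07 for mitosis, 0.23 for ribosome biogenesis, 0.27 for cholesterol and fatty acid synthesis, 0.28 for NK markers and 0.12 for interferon genes, beside a median over all genes near 0. Other lists lay further from 0. Every erythroid marker had a negative difference, from -0.08 for Tfrc to -1.53 for Alas2 (adjusted p = 0.143). Array 1 was the highest of the both-copies arrays for each of these markers, and several differences lean on it. Car1 had 9.95, 7.90 and 7.74 in precursors with both copies, against 7.25 to 7.58 in heterozygous precursors. Alas2 leaned on it less, with 11.93, 11.37 and 10.92 in precursors with both copies, against 9.49 to 10.17 in heterozygous precursors. Every MHC class II gene had a positive difference, from 0.09 for H2-Ob to 0.78 for H2-Eb1 (adjusted p = 0.281). The members of each list were read on the same arrays, so their signs are not separate observations. None of these erythroid and MHC class II differences passed, and histone deacetylases were the 1 list with a called member (Hdac11).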

How the data were processed

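RNA of 24 samples was measured on Affymetrix mouse gene arrays, and the 10 precursor arrays enter the tests. The deposited values are log2 levels that the authors made by RMA in oligo, an R package, per the submitters' processing notes (versions not stated there). They run from 3.80 to 14.31. Of 35556 probe sets 21789 have 1 gene symbol in the platform annotation, 1621 several and 12146 none, and 21698 matched a RefSeq gene ID. Of each symbol the probe set with the highest mean over 24 arrays was kept, which left 19938 genes.

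Limma 3.58.1 in R 4.3.3 fitted the 3 heterozygous, 3 both-copies and 4 wild-type arrays with 1 shared spread (lmFit, eBayes, two-sided, Benjamini-Hochberg over all genes, adjusted p under 0.05). The script was tested on simulated data. An exact permutation test of 3 against 4 arrays cannot go below p = 0.0571, so none is given. The labels and files used here name no dates or batches, so p-values rest on the spread between arrays that the titles call biological replicates. Same-numbered heterozygous and wild-type arrays did not deviate together (r = 0.0376, -0.131 and -0.000459), while heterozygous and both-copies arrays did (r = 0.208, 0.213 and 0.25). This pairing comes from the data, since no shared litter or day is stated. Heterozygous array 1 and both-copies array 2, numbered differently, had r = 0.13, and the other differently numbered pairs of these groups were negative. Named genes are Pax5, Abl1, Bcr, the 12 largest rises and falls among called genes whose arrays do not overlap (no receptor segments or unnamed models), and up to 4 called members per list, or the 1 with the smallest p. Other list members given with values were chosen after those were seen. The members and lists were chosen with earlier results of these data known. Alternatives covered the arrays fitted, block, scaling, weights, spread prior, dim genes, probe sets, sex and each array left out.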

Additional observations from a re-analysis of the deposited data

Results flagged for a closer look

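In 6 of 114 named genes 1 of the 4 wild-type arrays lay far from the other three, with a gap to the nearest array, as a share of the group's whole range, above Dixon's 95% critical value. For 1 group of independent values this level is passed about 1 time in 20. The 114 genes share the same 4 arrays and most were named for passing the test, so no expected number is given. For Foxp4 this share was 0.859, with array 2 at 9.13 and the other arrays at 9.36 to 9.39. For Spib it was 0.892, with array 2 at 12.83 and the other arrays at 12.98 to 13.00. For Cd36 it was 0.925, with array 2 at 8.34 and the other arrays at 7.01 to 7.11. For Traf1 it was 0.887, with array 1 at 6.91 and the other arrays at 6.68 to 6.70. For Cd3g it was 0.872, with array 4 at 6.89 and the other arrays at 7.58 to 7.69. For the platelet integrin Itgb3, which did not pass (0.59, adjusted p = 0.0581), it was 0.845, with array 3 at 8.03 and the other arrays at 8.19 to 8.22.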

How the results depend on the processing

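Counts of called genes varied widely, and the balance of higher and lower calls against wild type turned after quantile normalization (567 higher, 507 lower). List medians near 0 turned sign too, that of STAT5 targets in 4 of 19 alternatives and that of PAX5-activated genes without heterozygous array 3 (-0.04). For heterozygous against wild-type precursors the counts of called, higher and lower genes were 275, 61 and 214 with all 24 arrays sharing the spread, 253, 60 and 193 with the replicate block, and 5099, 2537 and 2562 with array weights. The block shared 209 genes with the 832, and the same-numbered arrays of these groups were not paired. The number higher was 567 of 1074 after quantile normalization, 379 of 1013 after cyclic loess and 430 of 1139 with sex as a covariate, and the number lower was 881 of 1203 with only the 7 arrays compared. Leaving out 1 array gave 37 to 1063 called genes, 10 to 260 higher and 27 to 803 lower, and 508 without wild-type array 4. For heterozygous precursors against both copies the count was 0 with only the 6 arrays (1813 at an unadjusted p under 0.05, limma), 0 with the replicate block, 2 with all 24 arrays, 79 with array weights and 16 with sex as a covariate, and 1 to 138 with 1 array left out, the highest without heterozygous array 2. For both copies against wild type it was 3536 after cyclic loess and 983 with sex as a covariate, and 2331 to 6015 with 1 array left out. Of 100 named genes that passed, 94 lost the call without wild-type array 3, 88 without array 2, 77 without array 1, 74 with all 24 arrays, 64 with the block and 0 with array weights. These leave-outs fit fewer arrays, and the cause of the other shifts was not tested.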

Other observations

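Subunits of the cytosolic chaperonin, which folds actin and tubulin, fell in 6 of 10 cases (Cct3, Cct4, Cct6a, Cct7, Cct8 and Tcp1), with a median log2 change of -0.46. This class, like those that follow, was chosen after its values were seen and carries no test of its own. Other chaperone genes fell too, the HSP90 cochaperone Ptges3 (-1.25, adjusted p = 0.0143) and the mitochondrial chaperonin Hspd1 (-1.21, adjusted p = 0.0211). Of 28 heat shock protein genes 3 fell (10.7%, beside 4.17% of all genes called), with 13 positive and 15 negative changes and a median of -0.08. Of 40 genes with a proteasome-type symbol (Psm) 3 fell (7.5%, median -0.16): Psmc3ip, Psmc6 and Psmd6. The symbol match does not make each of them a proteasome subunit. Among 51 small nucleolar RNA genes there were 5 falls and 0 rises (median -0.20). Of 23 killer cell lectin receptor genes there were 11 falls and 0 rises (median -0.82). The falls include Klrk1 and Klrb1c, which are also in the NK cell marker list, so the class is not separate from that list. Several of the 23 genes are near-identical copies whose probes may share transcripts.

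Kcnma1, which encodes a potassium channel, varied more within groups than between them, with 13.89, 12.77 and 6.32 in heterozygous precursors, against 12.62, 11.43, 13.29 and 8.68 in wild-type precursors (adjusted p = 0.904).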
